A study of Saccharomyces cerevisiae with 61 samples.

Results

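Topoisomerase II (Top2) and topoisomerase I (Top1) were mapped by chromatin immunoprecipitation sequencing (ChIP-seq) in budding yeast cells in meiosis, and the regions described here are the wide Top2 peaks that also carry Top1. These wide shared peaks were chosen by 2 measured values, width and overlap, so neither is a finding. Each is a Top2 peak of at least 1000 bases that shares at least 1 base with a Top1 peak, on 12 of the 16 chromosomes; chromosomes I, III, VI and XII were left out. The rule found 491 such peaks, among 2370 Top2 peaks of those 12 chromosomes and 2759 in all. On the 4 chromosomes left out, 83 Top2 peaks met the same width and overlap.

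The cells behind both lists were SK1, a laboratory strain in which meiosis is fast and synchronous, and were collected 3 h after transfer to sporulation medium at 30 °C. The Top1 list came from a TOP1-13MYC strain, in which Top1 carries a Myc tag, with an anti-Myc antibody. The Top2 list came from wild-type (WT) cells with an antibody against Top2 itself. Each list combined 2 biological replicates with their inputs, so no value of a peak has a replicate error, and overlap between the lists joins cultures of different strains rather than measurements in the same cells. The number of reads behind the peaks is not given in the files used here. The fold enrichment is the authors' value for ChIP over input in each peak.

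Top1 relaxes DNA supercoils by nicking a single strand, and Top2 passes a DNA duplex through a break in both strands of another, so that it can also untangle DNA molecules. Both act where transcription and replication overwind or underwind the DNA, and in yeast either can take over much of the other's work in relaxing supercoils. In meiosis Top2 is also a component of the chromosome axis, the protein core from which chromatin loops extend. The genes at the peaks were not analysed here, since no annotation of the SK1 assembly (Yue) was used.

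Wide shared peaks were a minority of Top2 peaks that held nearly as much DNA as all the others. They made up 20.7% of the Top2 peaks on the 12 chromosomes and 49.7% of the bases in those peaks, 876926 of 1765033. The rule chose them for width, so a large share of the bases follows from it. Widths of wide shared peaks ran from 1002 to 5522 bases, with a median of 1553 and quartiles of 1241 and 2090. The 3 narrowest measured 1002 bases on chromosome IV (1408350 to 1409351), 1003 on chromosome VII (1037514 to 1038516) and 1003 on chromosome XIII (893051 to 894053). Just under the limit stood shared peaks of 998 and 997 bases on chromosome XI (140148 to 141145 and 396598 to 397594) and of 996 bases on chromosome IV (1052401 to 1053396). Widths were continuous across the limit, so it separates no distinct kinds of peak. Of the 568 Top2 peaks of 1000 bases or more, 491 (86.4%) touched a Top1 peak, as did 1073 of 1802 narrower ones (59.5%). A longer interval meets another interval more often by its length alone, and these 2 shares follow from the rule, so no test was made of them.

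**Figure D1:**
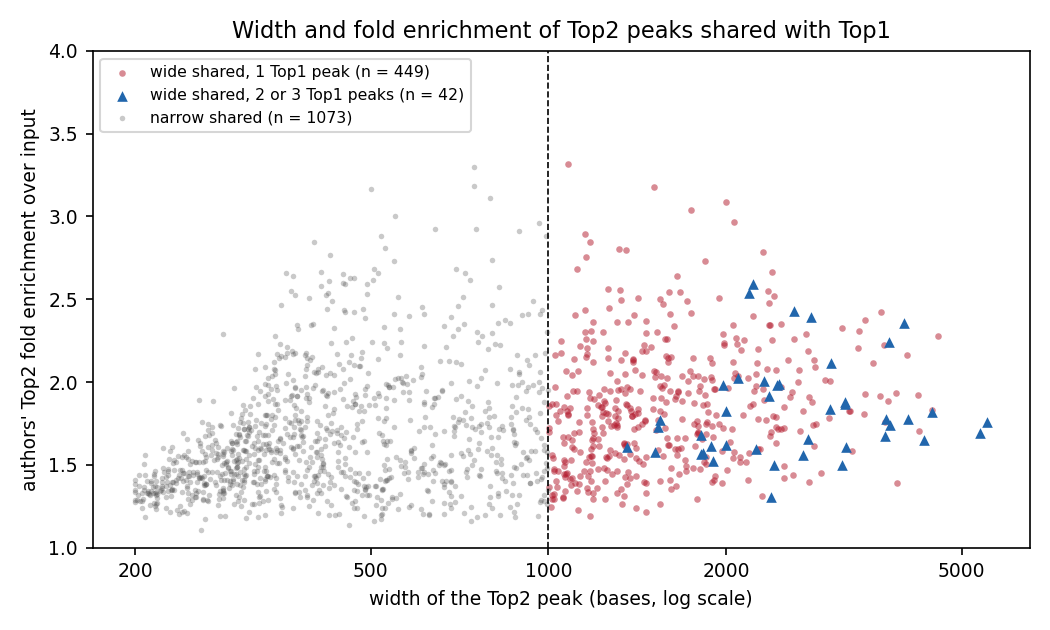
Width (bases, log axis) and the authors' Top2 fold enrichment of each Top2 peak shared with Top1 on 12 chromosomes. The 491 wide shared peaks lie right of the dashed line at 1000 bases; the 42 with 2 or 3 Top1 peaks (triangles) start at a width of 1359 bases.

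Top2 fold enrichment was modest throughout and varied widely among the wide shared peaks. It ran from 1.19 to 3.32 with a median of 1.81, beside a median of 1.58 in the 1073 narrow shared peaks and 1.44 in the 77 wide peaks without Top1. A fold of at least 2 was reached by 146 of 491 wide shared peaks (29.7%), beside 15.4% of all Top2 peaks on these chromosomes. In the other classes, 173 of 1073 narrow shared peaks (16.1%) and 3 of 77 wide peaks without Top1 (3.9%) reached it. Peak width, call and fold come from the same ChIP, and the fold was not tested for that reason. Among the wide shared peaks themselves, width and fold were only loosely related (Spearman's rho = 0.224 over 491 peaks, which share the same libraries). With the 491 peaks split by width into 4 groups of 122 or 123, the median fold from the narrowest to the widest group was 1.69, 1.80, 1.86 and 1.89, and the median −log10 q-value was 26.5, 30.8, 40.1 and 50.4.

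The 5 wide shared peaks with the highest Top2 fold were 1077 to 2061 bases wide, all under the upper quartile of 2090 bases. The highest fold, 3.32, belonged to a peak of 1077 bases on chromosome X (230376 to 231452), which Top1 covered to 98.7%. Its Top1 peak was 4549 bases wide and ran 3486 bases beyond it. The same Top1 peak also covered 91.75% of the next wide shared peak, at 233726 to 235047. Chromosome VII held a peak with a fold of 3.18 over 1506 bases (602371 to 603876, 87.7% covered) and another with 2.97 over 2061 bases (384669 to 386729, 97.5% covered). The peak of 1999 bases on chromosome XIV (612811 to 614809) had a fold of 3.09, and a Top1 peak inside it covered 95.7%. On chromosome IV, a peak of 1745 bases (641066 to 642810) had a fold of 3.04 and was covered to 76.6%. All 5 held a single Top1 peak that covered most of their width.

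The widest peaks had folds nearer to the middle of the range. The widest, 5522 bases on chromosome XIV (600850 to 606371), had a fold of 1.76, and the next, 5368 bases on chromosome XIII (481717 to 487084), one of 1.69. A peak of 4565 bases on chromosome XI (73001 to 77565) was the exception among the 5 widest, with a fold of 2.28. The remaining 2, on chromosome VII (528916 to 533377, 4462 bases) and chromosome II (687608 to 692061, 4454 bases), had folds of 1.82 and 1.83. None of the 5 widest was among the 5 with the highest fold.

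Most wide shared peaks held exactly 1 Top1 peak. This was so for 449 of 491 (91.4%), while 39 (7.94%) held 2 and 3 (0.611%) held 3. The 42 peaks with 2 or more were 8.55% of the wide shared peaks and 1.77% of all Top2 peaks on these chromosomes. None of the 1073 narrow shared peaks held more than 1. Neighbouring Top1 peaks in the list were never closer than 802 bases, so a Top2 peak under 804 bases cannot touch 2 of them, and this count depends on width by construction. Within the wide shared peaks the number grew with width too. Over the 4 width groups, from narrow to wide, 0 of 123, 4 of 123, 9 of 123 and 29 of 122 (23.8%) held 2 or more.

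The 3 peaks with 3 Top1 peaks differed in how much of them Top1 filled. In the widest peak, on chromosome XIV, Top1 peaks of 214, 2130 and 300 bases lay at 601367 to 601580, 603104 to 605233 and 606068 to 606367, and together covered 2644 bases (47.9%). The peak on chromosome VII held Top1 peaks of 231, 207 and 500 bases, which covered only 938 of its 4462 bases (21.0%). In the other peak on chromosome XIV (418241 to 422023, 3783 bases, Top2 fold 1.74), Top1 peaks of 251 and 246 bases stood beside another of 3270 bases that ran 1932 bases beyond its end, and 1835 bases (48.5%) were shared. The next 2 by number and width each held 2 Top1 peaks. They were the peak of 5368 bases on chromosome XIII, with 3647 bases shared (67.9%), and a peak of 4317 bases on chromosome XVI (55808 to 60124, fold 1.65), with 1003 (23.2%). Across the 42 divided peaks, neighbouring Top1 peaks were 805 to 2430 bases apart, with a median of 979 bases over 45 gaps. The Top1 list holds no gap under 802 bases, and each gap had to fit inside a Top2 peak. These distances are thus bounded by construction. Top1 covered 48.6% of the bases of these 42 peaks and 69.1% of the 449 with a single Top1 peak. Median Top2 fold was 1.77 in the 42 and 1.81 in the 449.

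**Figure D2:**
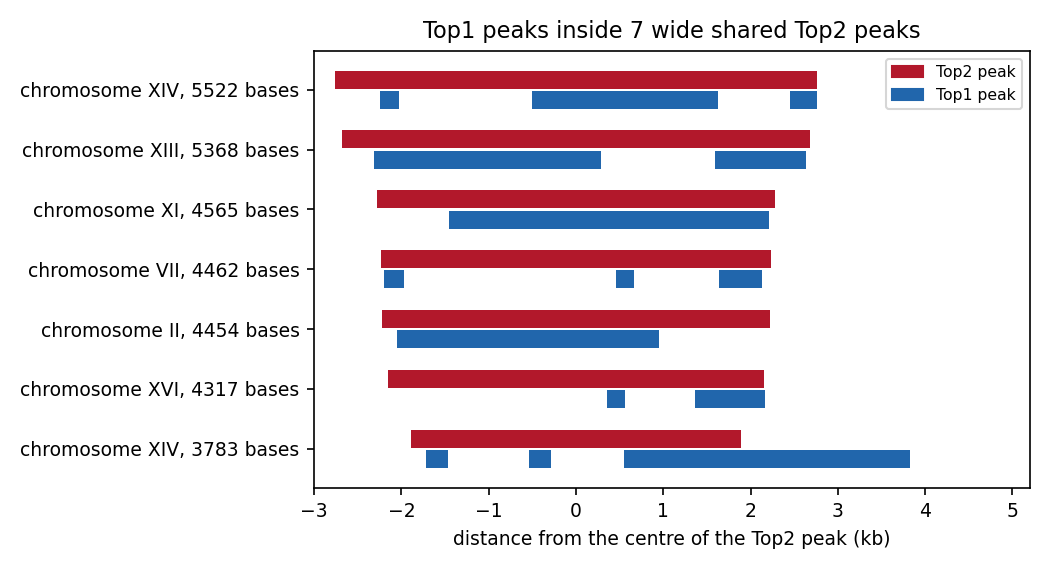
Top2 peaks (upper bar of each pair) and the Top1 peaks that touch them (lower bars), by distance in kb from the centre of the Top2 peak, for the 5 widest wide shared peaks and the 5 with the most Top1 peaks (7 peaks in all). The Top1 bars leave long uncovered stretches in the peak of 4462 bases on chromosome VII and fill most of the peak of 4565 bases on chromosome XI.

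Top1 and Top2 shared most of the DNA in these regions, with a wide spread between peaks. Of the bases in wide shared peaks, 582373 (66.4%) lay in Top1 peaks, beside 73.1% in narrow shared peaks. These bases were 61.5% of all those common to both lists on the 12 chromosomes, a share that the choice of wide peaks raises by construction. The share per peak ran from 7.17% to 100%, with a median of 77.0% and quartiles of 41.4% and 94.3%. At least 75% was covered in 258 peaks (52.5%), 50% to 75% in 84, 25% to 50% in 87 and under 25% in 62 (12.6%). The whole width was covered in 47 (9.57%), beside 194 of 1073 narrow shared peaks (18.1%). The share was almost unrelated to width (rho = −0.0668, 491 peaks) and loosely related to Top2 fold (rho = 0.238).

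No wide shared peak rested on a contact of a few bases. The fewest bases shared were 107, in peaks on chromosome XVI at 753100 to 754309 and 801383 to 802450, followed by 109 on chromosome II (317987 to 319266). Narrow shared peaks went down to 2 shared bases. The most were 4122 bases, in a peak on chromosome XVI (915050 to 919280) with a Top2 fold of 1.71. A peak on chromosome II (377698 to 381746) followed with 4049 bases, its whole width, and a fold of 2.16. The peak of 4565 bases on chromosome XI was next, with 3667 bases.

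The Top1 peaks in these regions were wide as well. The 536 contacts involved 531 different Top1 peaks, 27.6% of the 1924 on the 12 chromosomes, and 5 of them each reached 2 wide shared peaks. Their median width was 1098 bases, beside 401 bases for the 1042 Top1 peaks at narrow shared peaks, and 24 Top1 peaks stood in both sets. A width of 1000 bases or more was found in 303 of 531 (57.1%), beside 155 of 1042 (14.9%) at narrow shared peaks. Among all 1924 Top1 peaks of the 12 chromosomes the share was 23.3%. A longer Top1 peak meets a Top2 peak more often by its length alone, so these shares were not tested. Of the 449 Top1 peaks this wide on the 12 chromosomes, 303 (67.5%) thus touched a wide shared Top2 peak. In 305 of 491 wide shared peaks (62.1%) at least 1 Top1 peak was itself 1000 bases or more. Widths of partners were loosely related (rho = 0.362 between a Top2 peak and its widest Top1 peak).

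Their Top1 fold enrichment was low. It ran from 1.16 to 1.82 with a median of 1.36, beside medians of 1.32 at narrow shared peaks and 1.29 in 375 Top1 peaks without Top2. At narrow shared peaks the Top1 fold reached 2.42. In 81 of 491 wide shared peaks (16.5%) at least 1 Top1 peak had a Top1 fold of at least 1.5. Of single Top1 peaks on these chromosomes, 198 of 1924 (10.3%) had it. The units differ, since a wide shared peak was scored by the highest of its Top1 peaks. The highest in wide shared peaks was 1.82 on chromosome IV (380441 to 381705), where Top1 covered all 1265 bases and the Top2 fold was 2.45. It was followed by 1.76 on chromosome V (134621 to 136872, 32.5% covered, Top2 fold 2.12). Next came 1.75 on chromosome II (483944 to 485535, 36.3% covered, Top2 fold 1.62). Across the 491 peaks, the Top2 fold and the highest Top1 fold had a rho of 0.425. The untagged Myc control was not used here.

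Top1 peaks lay either within the Top2 peak or past 1 of its ends in about equal numbers. Of the 536 contacts, 249 (46.5%) had the Top1 peak inside, 240 (44.8%) had it reaching past 1 end and 47 (8.77%) past both. The overhang was short in most cases, with a median of 130 bases over 287 contacts, but reached 4203 bases. In peaks with a single Top1 peak, the centres were a median of 12.3% of the Top2 width apart. Each peak was then cut into 10 equal parts in order of position. Averaged over wide shared peaks, Top1 covered 55.0% of part 1 and 49.7% of part 10. In parts 2 to 9 it covered 67.0% to 72.4% with no rise in the middle. In narrow shared peaks the curve had a summit, with 53.9% in part 1, 88.6% in part 6 and 53.1% in part 10. No Top1 peak in the list was under 200 bases, and narrow shared peaks had a median width of 399 bases. The contrast of the 2 curves thus depends on width, which chose the sets.

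Top1 coverage was low outside the edge of the Top2 peak, in part by construction. It was 17.6% in the first 250 bases outside, averaged over both sides, and between 6.42% and 8.22% in the 750 bases beyond. The whole length of the 12 chromosomes was covered to 14.4%. Narrow shared peaks had 23.9% in the first 250 bases outside and 7.95% to 10.9% beyond. Neighbouring Top1 peaks in the list were never closer than 802 bases. The Top1 peak that each shared peak holds by rule thus keeps others out of much of these flanks. A depletion of Top1 there was not tested.

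**Figure D3:**
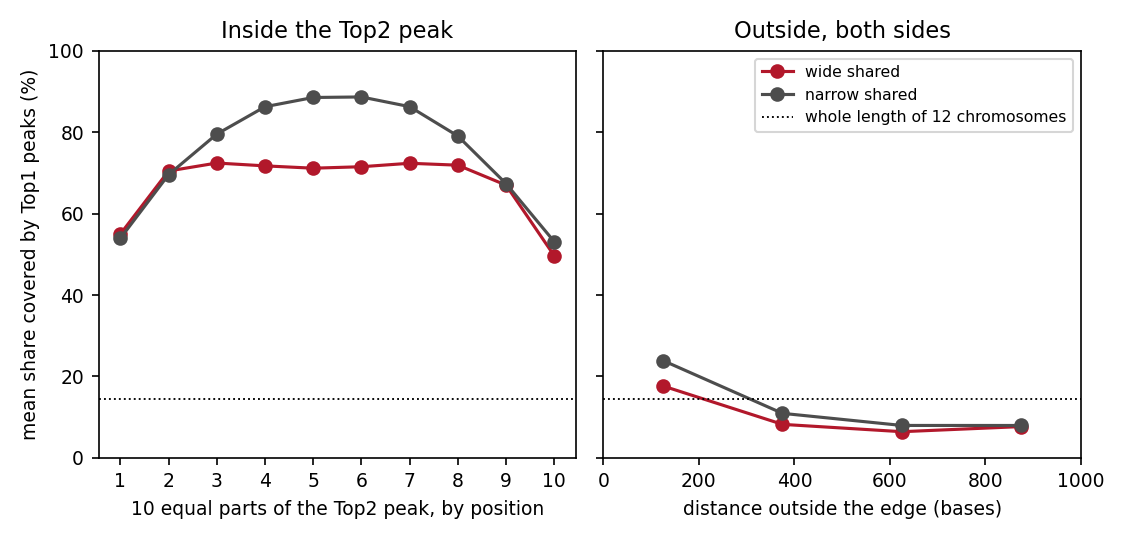
Mean share of bases covered by Top1 peaks in 10 equal parts of the Top2 peak (left) and in steps of 250 bases outside its edges (right), for 491 wide and 1073 narrow shared peaks; the dotted line is the coverage over the whole length of 12 chromosomes, 14.4%. The wide set is level between parts 2 and 9, at 67.0% to 72.4%, and both sets fall below the dotted line beyond 250 bases. Top1 peaks in the list are never closer than 802 bases, which limits coverage just outside by construction.

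Along the chromosomes, wide shared peaks stood at 4.93 per 100 kb and covered 8.81% of the length up to the last peak. The 479 gaps between neighbouring wide shared peaks, from edge to edge, had a median of 12087 bases and quartiles of 5851 and 24154. Gaps were at most 5 kb in 106 cases (22.1%), at most 10 kb in 205 (42.8%) and at most 20 kb in 320 (66.8%). A median of 2 other Top2 peaks stood between neighbours, and at most 21. For comparison, the median gap was 5776 bases between narrow shared peaks, which are more numerous, and 2614 bases between Top2 peaks of any class.

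The closest neighbours were 835 bases apart on chromosome IV (539083 to 540539 and 541375 to 544184). Next came 864 bases on chromosome XIV (670157 to 671418 and 672283 to 674165) and 866 bases on chromosome IX (374322 to 377463 and 378330 to 381564). No 2 Top2 peaks in the list were closer than 804 bases, so distances shorter than that cannot be seen in it. The widest stretches without a wide shared peak were 77196 bases on chromosome IV (1243016 to 1320211), 73073 bases on chromosome X (32966 to 106038) and 72666 bases on chromosome XVI (114973 to 187638). They were not bare of Top2, since they held 11, 15 and 21 other Top2 peaks.

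**Figure D4:**
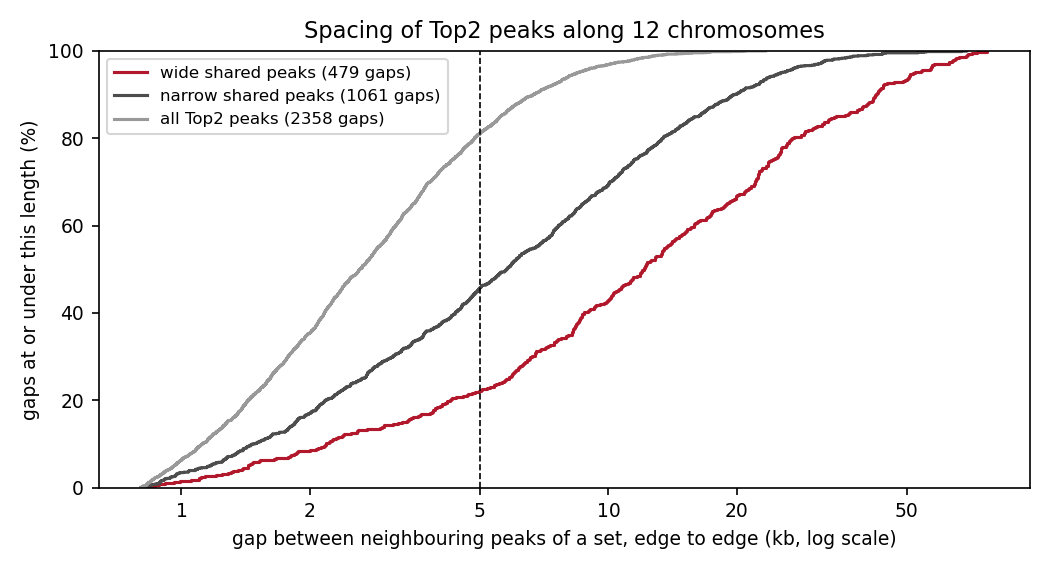
Cumulative share of gaps (percent) at or under a given length (kb, log axis) between neighbouring peaks of the same set, for wide shared, narrow shared and all Top2 peaks on 12 chromosomes. The dashed line marks 5 kb, at or under which 106 of 479 gaps between wide shared peaks lie.

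A cluster was taken as a run of wide shared peaks with gaps of at most 5 kb. By that measure 302 of 491 (61.5%) stood alone, and 189 (38.5%) fell into 83 clusters. Of these clusters, 65 had 2 peaks, 13 had 3 and 5 had 4. The 3 with 4 peaks and the longest spans were on chromosome VII (970116 to 986341), chromosome IV (585376 to 601479) and chromosome XIV (253676 to 268073). They spanned 16226, 16104 and 14398 bases, and 50.4%, 52.6% and 44.8% of the span lay in wide shared peaks. No narrower Top2 peak or wide peak without Top1 stood inside any of the 3, and the numbers of Top1 peaks were 4, 6 and 4. A limit of 5 kb joins more peaks the denser a set is. Between Top2 peaks of any class, the upper quartile of gaps was 4304.5 bases, so most of those gaps were also within the limit. The share in clusters was not computed for other sets, and clustering beyond that given by density was not tested.

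The class of the next Top2 peak was close to the make-up of the whole list. Of 980 next peaks to either side of a wide shared peak, 222 (22.7%) were wide shared peaks, which were 20.7% of all Top2 peaks on these chromosomes. Narrow shared peaks were 47.8% of the next peaks and 45.3% of all. Narrow peaks without Top1 were 27.2% of the next peaks and 30.8% of all, and wide ones 2.35% and 3.25%. In windows of 50 kb, 13 of 192 held no wide shared peak, 69 held 2 and 4 held 7, the most found. The windows with 7 were on chromosome IV (600001 to 650000), chromosome V (300001 to 350000), chromosome VII (950001 to 1000000) and chromosome XVI (450001 to 500000).

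The share of wide shared peaks near chromosome ends was slightly below that of all Top2 peaks. Within 20 kb of the first base or the last peak end, there were 14 of 491 (2.85%), beside 3.84% of all Top2 peaks and 4.82% of the length. Within 50 kb there were 44 (8.96%), beside 10.5% of Top2 peaks and 12.1% of the length. Narrow shared peaks had 4.19% within 20 kb and 9.88% within 50 kb. These differences were small and were not tested.

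Wide shared peaks were spread fairly evenly over the chromosomes, apart from 2 sparse ones. With length taken up to the last peak, chromosome V had the highest density, 5.87 per 100 kb (34 peaks, 10.7% of its length), followed by chromosome IV with 5.80 (86 peaks, 9.73%). Chromosome X had the lowest, 3.00 per 100 kb (22 peaks, 5.15%), and chromosome IX had 3.06 (13 peaks, 6.25%). With sizes from the input reads of the spike-in libraries, chromosome II was highest and chromosome IX lowest. The other 8 chromosomes lay between 4.72 and 5.44. The low density of chromosomes IX and X was not one of Top2 peaks in general, which numbered 23.5 and 22.9 per 100 kb there and 22.3 to 24.9 elsewhere. Wide shared peaks were 13.0% and 13.1% of the Top2 peaks of chromosomes IX and X, against 20.0% to 26.2% on the other 10. Chromosome X also had the longest median gap, 26413 bases, against 9255 bases on chromosome V.

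Median width ran from 1416 bases on chromosome VIII to 1758 on chromosome VII, and median Top2 fold from 1.63 on chromosome XIV to 1.92 on chromosome IX. The share of bases covered by Top1 was lowest on chromosome XIV, with 55.6%, and highest on chromosome XV, with 73.6%. Chromosome XIV also had the most peaks with 2 or more Top1 peaks, 9 of 41, while chromosome V had none in 34.

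Separate libraries gave a measure of Top2 that the peak lists did not use. In 14 cultures with 1 ChIP and 1 input library each (1087617 to 4862244 reads a library), fixed S288c cells were mixed in at 20% as a spike-in, and SK1 reads were counted per chromosome. The cultures were rec8 mutants, which lack the meiotic cohesin subunit (n = 2), and spo11 mutants, which lack the enzyme that breaks meiotic DNA (n = 2), both at 3 h and 30 °C, and top2-1 mutants, with a temperature-sensitive TOP2 allele (n = 2), and WT (n = 2), both at 3 h and 34 °C. WT at 30 °C was sampled at 3 h (n = 3) and 0 h (n = 3). For each culture, the log2 ratio of a chromosome's ChIP share to its input share was regressed on the percentage of that chromosome covered by wide shared peaks, over the 12 chromosomes. A positive slope means that chromosomes richer in wide shared peaks gave relatively more Top2 ChIP. The peaks were called in WT cells at 3 h and 30 °C. Their choice may thus favour a steeper slope in that state than at 0 h or in mutants, also in separate libraries. The size of such a bias was not tested.

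The slope was small in every group and positive in 13 of the 14 cultures. In WT at 3 h it was 0.0164, 0.0156 and 0.00635 log2 units per percentage point, and in WT at 0 h 0.00668, 0.00219 and 0.00582. The groups overlapped, with means of 0.0128 ± 0.0056 at 3 h and 0.0049 ± 0.0024 at 0 h (SD, n = 3 each). The difference, 0.00789 with a pooled SD of 0.0043, was higher at 3 h on each of 3 flow cells, by 0.0134, 0.00975 and 0.000531. Over the 12 chromosomes the relation was loose in single WT cultures, with rho of 0.531, 0.308 and 0.203 at 3 h. At 0 h rho was 0.573, −0.154 and 0.0699, so by rank the time points overlapped and a culture with a positive slope had a negative rho. Chromosomes V and XIV were the 2 most richly covered and lay on opposite sides in WT at 3 h, with log2 ratios of 0.050 ± 0.011 and −0.065 ± 0.023 (SD, n = 3). Chromosome X, the most sparsely covered, had −0.055 ± 0.026.

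In top2-1 the slope was −0.00431 and 0.0031, against 0.0143 and 0.00741 in WT at 34 °C, with no overlap. The means were −0.000607 ± 0.0052 and 0.0109 ± 0.0049 (SD, n = 2 each), a difference of −0.0115 with a pooled SD of 0.00507. No flow cell held both groups, so genotype and flow cell cannot be told apart. The rec8 cultures had 0.0102 and 0.00888, and the spo11 cultures 0.019 and 0.0115. They differed from WT at 3 h by −0.00325 and 0.00247, less than the pooled SDs of 0.0046 and 0.00548, and both overlapped WT. Within flow cells the rec8 difference was 0.00319, of opposite sign, and the spo11 differences were 0.00255 and 0.0052. Between WT at 34 °C and WT at 30 °C the difference was −0.00191 with a pooled SD of 0.00537, and the groups, which shared no flow cell, overlapped. With the share covered by all Top2 peaks on the x axis, each of these differences between groups moved by less than its pooled SD. They are thus not shown to be particular to wide shared peaks. No p is given for these slopes, because the peaks that define them were chosen with results of this series known.

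**Figure D5:**
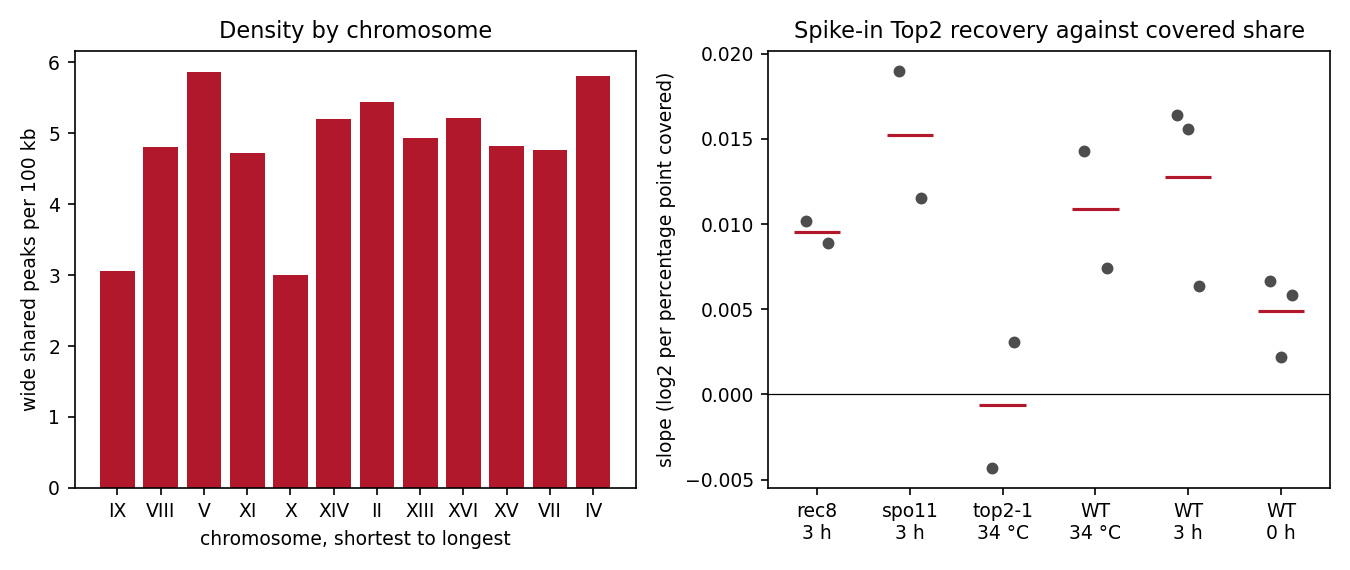
Left, wide shared peaks per 100 kb on each of 12 chromosomes, from 3.00 on X to 5.87 on V. Right, slope (log2 units per percentage point) of Top2 recovery per chromosome on the share covered by wide shared peaks, with a point per culture and a line at the group mean; both top2-1 cultures lie below both WT cultures at 34 °C.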

How the data were processed

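The Top1 and Top2 peak lists are broad peaks deposited by the authors on the SK1 (Yue) assembly, and Bowtie and MACS2 2.1.1 stand in the submitters' processing notes. The authors' fold enrichment is a ratio of ChIP over input per peak, and the deposited −log10 q-value is per peak too. Per the series design text, tracks of the same names merge 2 replicates with their inputs. The calling thresholds are not given in the sources used here, and the names of the 2 lists carry differing marks that no source explains, so widths and gaps may rest on unlike settings. No list for a single replicate was used, so replicates could not be left out in turn.

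The spike-in values are deposited counts of reads on each S288c and SK1 chromosome, with no normalization. Titles set the groups where other tags contradicted them (WT replicate 3 and top2-1); some sample descriptions name the mutant top2-4. Flow cells were read from the file names. No 2 of 20 replicate pairs agreed within sampling noise over SK1 and S288c chromosomes together (the lowest chi-square was 160 on 31 degrees of freedom). Differences in the share of spike-in reads enter that value, so it does not single out the SK1 shares behind the slopes.

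Overlaps, gaps (edge to edge), clusters (gaps of at most 5 kb) and slopes were computed in Python 3.11.15 (scipy 1.17.1, pandas 2.3.3, numpy 2.4.6; plots with matplotlib 3.10.9) and tested on simulated data. A chromosome was taken to end at its last Top1 or Top2 peak. Starts count from 1. Named peaks are the extremes in width, Top1 number, fold, bases shared and spacing, and the peaks next to the width limit; windows were named after their values were seen. The peaks and rules were chosen with earlier results of these data known. No chance test over regions was made. Transcript levels were not used here.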

Additional observations from a re-analysis of the deposited data

How the results depend on the processing

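The peak values depend mainly on where limits are set. The number of wide shared peaks was 491, and became 265 with a width of at least 1500 bases, 301 with a reciprocal overlap of at least 50%, 315 with a −log10 q of at least 5 in both lists and 81 with Top1 peaks of at least 1.5-fold only. The share holding 2 or more Top1 peaks (8.55%) became 15.5%, 4.97% (at least 50% of the Top2 peak covered), 2.86% and 0% under, in turn, the width of 1500 bases, that cover, the q limit and the Top1 fold limit. The bases shared (66.4%) became 71.9% under the Top1 fold limit and 83.3% with at least 50% covered. The share in clusters (38.5%) was 16.3%, 65.6% and 88.8% with gaps of at most 2, 10 and 20 kb, and 43.6%, 31.2% and 22.3% with widths of at least 800, 1200 and 1500 bases. The median gap (12087 bases) was 9921, 15855 and 22603 bases at these widths. Fewer or more peaks enter under each of these limits by construction. Requiring 100 shared bases changed nothing. With chromosome sizes from input reads, the highest density was 5.78 per 100 kb on chromosome II and the lowest 3.06 on chromosome IX, in place of 5.87 on chromosome V and 3.00 on chromosome X.

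The slope differences moved by less than their pooled SD with another measure on the x axis, with all 16 chromosomes, with a culture left out, with a replicate block, and without chromosome X or XIV, which was added after the data were seen. The other measures were wide shared peaks per 100 kb and the share covered by all Top2 peaks. With all Top2 peaks, rescaled to the same spread of x, the difference was 0.00628 for 3 h against 0 h and −0.0106 for top2-1. The differences are thus not shown to be particular to wide shared peaks. For 3 h against 0 h and for top2-1, both groups had equal numbers of cultures. Leaving 1 out then cannot move the difference by more than the pooled SD, and the replicate block gives the same mean. For these differences neither was a check. Within single flow cells they moved by more in 3 cases, to 0.0134 and 0.000531 (on flow cells B and D) for 3 h against 0 h and to 0.00319 for rec8. With 1 culture left out at a time they ran from 0.00607 to 0.0111 (3 h against 0 h), from −0.00647 to −0.00143 (rec8), from −0.00124 to 0.00619 (spo11), from −0.0152 to −0.00778 (top2-1) and from −0.00538 to 0.00156 (34 °C against 30 °C). With a replicate block, as the mean of differences between cultures of the same number, they were 0.00789, −0.00647, −0.000745, −0.0115 and −0.00513 in the same order. The peak lists merge their replicates, so their depth and error are unknown.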
